A study of Rattus norvegicus with 84 samples.

Results

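The genes described here are 9 genes that mark microglia, the resident macrophages of the brain: C1qa, C1qb and C1qc, Cx3cr1, Csf1r, Aif1, Trem2, Tyrobp and Cd68. They were found by looking up each symbol in the probe-to-gene table of the array, and 7 of the 9 had a named probe, 1 probe each (ILMN_1352382 for C1qa, ILMN_1352142 for C1qb, ILMN_1359739 for C1qc, ILMN_1355410 for Cx3cr1, ILMN_1359219 for Aif1, ILMN_1348883 for Trem2 and ILMN_1372404 for Tyrobp). Csf1r and Cd68 had no named probe and were not analysed here. The 7 probes stood among 22523 probes on the array, of which 13793 carried 1 gene symbol and named 13337 genes in all. All 7 passed the filter on dim probes in each labelled region.

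C1qa, C1qb and C1qc encode the 3 chains of C1q, the recognition protein that starts the classical complement pathway. In the brain C1q is made largely by microglia, and in mice it takes part in the tagging of synapses for removal. Cx3cr1 is the receptor through which microglia sense the neuronal chemokine Cx3cl1, and Csf1r is the growth factor receptor on which their survival depends. Trem2 is a receptor for lipids and apolipoproteins that signals through the adaptor encoded by Tyrobp. Aif1 encodes Iba1, an actin-binding protein widely used as a stain for microglia, and Cd68 encodes a protein of the lysosome membrane.

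The study measured gene expression on 84 Illumina bead arrays. They cover 28 rats (F344xBN, male, 7 months old) and 3 dissected pieces of the hippocampus from each. The rats formed 4 groups of 7: SAHA with the maze (SAHA RPC), SAHA in the home cage (SAHA HC), vehicle with the maze (Veh RPC) and vehicle in the home cage (Veh HC). SAHA, an inhibitor of histone deacetylases, was given at 50 mg/kg in pure DMSO, and vehicle rats received the same volume of DMSO. Death came 90 min after injection in every group, so no group shows the level without an injection or without DMSO. RPC was a session of 17 trials in a water maze begun 10 min after injection, and it included a 60 s probe trial. RPC rats had also had 8 days of training in the maze a week earlier and HC rats had not, so a difference between RPC and HC holds both. The design asks how the drug, the behaviour and the combination of both changed expression in each region.

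The C1q genes lie side by side on chromosome 5 of the rat, in the order C1qb, C1qc, C1qa with no other annotated gene between them. Of these genes C1qa and C1qb had an entry in the table of promoters and C1qc had none. The bases before the start of C1qa and C1qb are therefore shown. They are the 250 bases upstream of each gene's start, from RefSeq on build GRCr8, read 5′ to 3′ on the minus strand, on which both genes lie. Capitals mark the core motif GGAAGT of the myeloid factor PU.1, or its reverse complement ACTTCC. The C1qa stretch is chr5:154419934-154420183 and the C1qb stretch is chr5:154407828-154408077.
C1qa: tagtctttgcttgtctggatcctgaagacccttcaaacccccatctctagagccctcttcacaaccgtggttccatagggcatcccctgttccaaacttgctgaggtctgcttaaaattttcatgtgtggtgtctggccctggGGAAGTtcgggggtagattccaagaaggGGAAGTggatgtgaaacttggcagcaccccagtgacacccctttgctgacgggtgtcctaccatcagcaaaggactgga
C1qb: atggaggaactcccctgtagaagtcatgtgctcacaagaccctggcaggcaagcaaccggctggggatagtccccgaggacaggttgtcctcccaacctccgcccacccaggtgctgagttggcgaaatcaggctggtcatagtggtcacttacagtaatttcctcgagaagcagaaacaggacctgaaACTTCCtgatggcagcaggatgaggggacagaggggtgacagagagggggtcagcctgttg
The C1qa stretch held GGAAGT at 2 places, 107 to 102 and 79 to 74 bases before the start, and the C1qb stretch held it at 1 place, 61 to 56 bases before the start, on the other strand. Searched the same way on both strands, 19.2% of 33469 promoters of that length held the motif. The AP-1 motif TGAGTCA, present in 4.05% of those promoters, and the cyclic AMP response motif TGACGTCA, present in 1.59%, were not among the letters of either stretch. Of the 7 measured genes, 4 had an entry in the table of promoters, and the stretches of Cx3cr1 and Trem2 held none of the 3 motifs. A match describes letters and does not show that a factor binds there.

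The labels CA1 and DG went against most of their markers. Wfs1, which marks pyramidal cells of CA1, averaged 6.86 ± 0.77 on the log2 scale in the region labelled CA1, 8.08 ± 0.92 in that labelled CA3 and 10.65 ± 0.29 in that labelled DG (SD, n = 28 each). Prox1, a marker of dentate granule cells, was detected on 28 of 28 arrays of labelled CA1 and on 4 of 28 of labelled DG. The regions are therefore called by their labels and no tissue is assumed. The mean signal of an array ran from 428.2 to 904.8 and the share of detected probes ran from 35.35% to 49.98%. By a low correlation with the other arrays of their region, 8 arrays stood apart: 3 of them labelled CA1, 5 labelled CA3 and 0 labelled DG. The 5 of labelled CA3 all belong to RPC groups, 3 of Veh RPC and 2 of SAHA RPC. The lowest of them, Veh RPC replicate 6, had a median correlation of 0.814 and the lowest share of detected probes.

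The probes of C1qa, C1qb, C1qc, Aif1 and Trem2 were detected on 84 of 84 arrays, at a detection p-value under 0.01. The Tyrobp probe was detected on 83 of 84 arrays, with signals from 103 to 286. The Cx3cr1 probe was detected on 69 of 84 arrays: 24 of 28 in labelled CA3, 17 of 28 in labelled CA1 and 28 of 28 in labelled DG. Its signals ran from 94 to 178, so the background correction shrinks its differences the most. All levels below are log2 values after background correction and quantile normalisation, and levels of different probes are not compared. These are pieces of whole tissue, in which fewer microglia and less RNA in each microglial cell cannot be told apart.

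**Figure D1:**
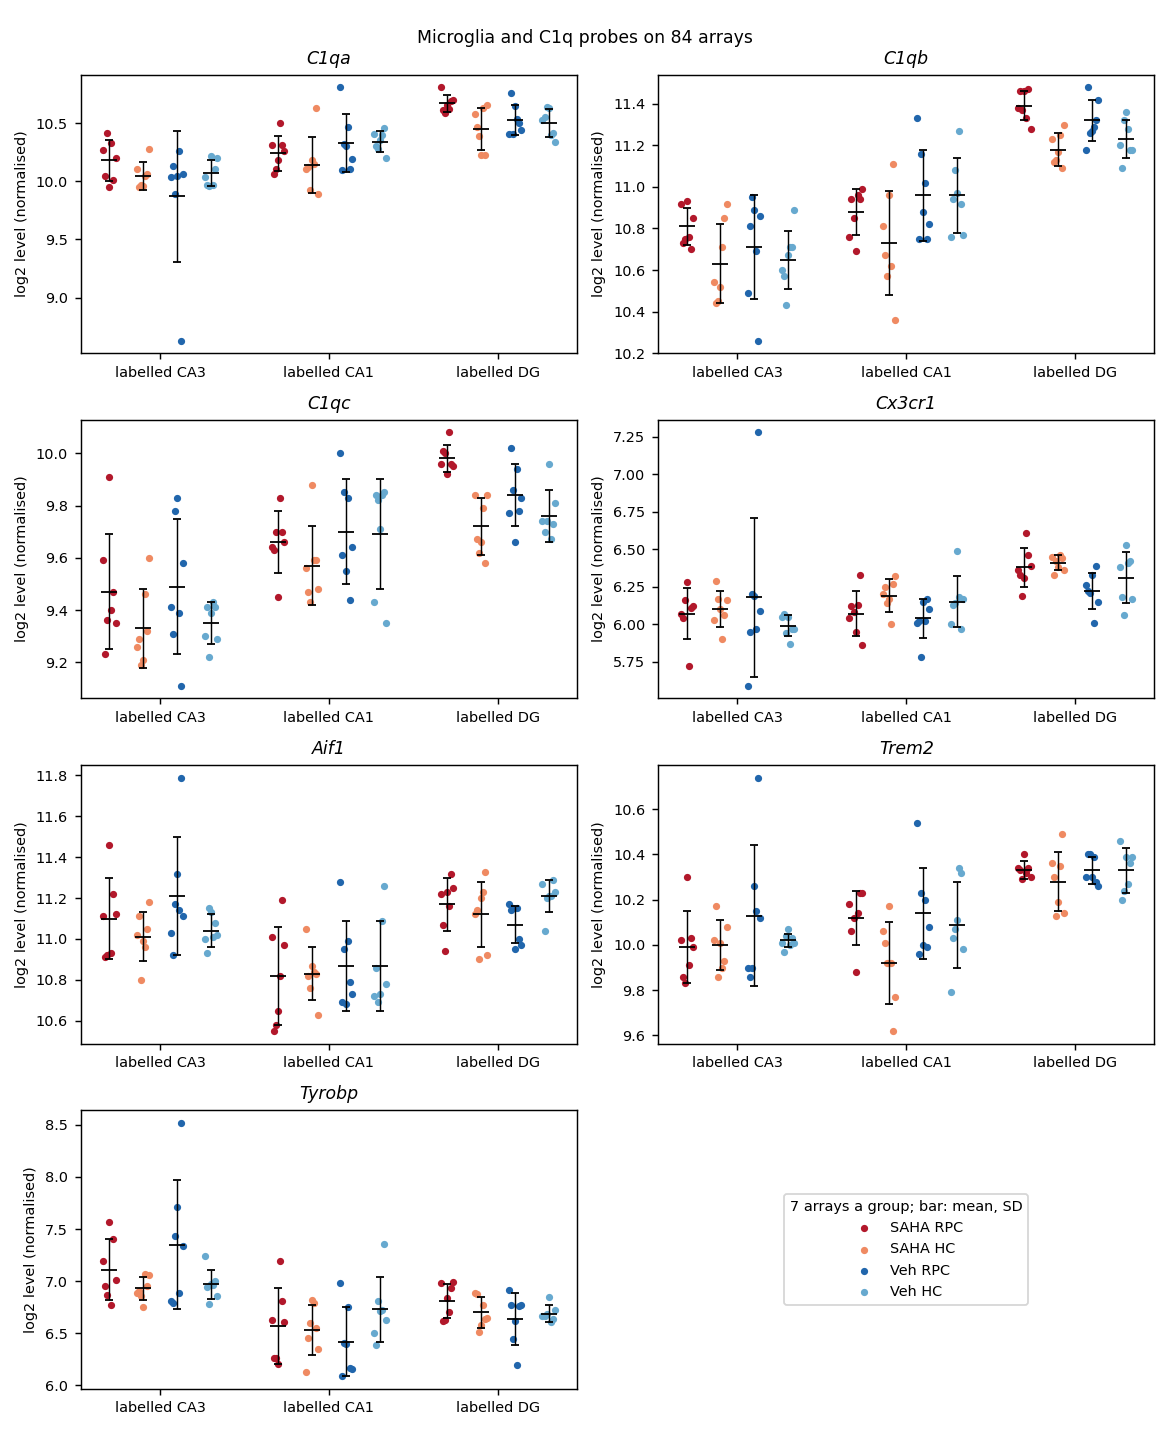
Normalised log2 level (vertical axis, a separate scale for each gene) of the 7 probes on each of 84 arrays, by labelled region and by group (SAHA RPC, SAHA HC, Veh RPC, Veh HC, left to right). Points are arrays and bars show the mean and SD of 7 arrays; the 28 labelled DG points of C1qb lie above all 28 labelled CA3 points, and 1 Veh RPC array of labelled CA3 lies far from its group for several genes.

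The order of the 12 group means shows where the C1q genes were highest. For C1qa, C1qb and C1qc the 4 groups of labelled DG took the first 4 places. C1qb had means of 11.39 ± 0.07 in SAHA RPC, 11.18 ± 0.08 in SAHA HC, 11.32 ± 0.10 in Veh RPC and 11.23 ± 0.09 in Veh HC of labelled DG (SD, n = 7 each). The next group was Veh RPC of labelled CA1 at 10.96 ± 0.22, and that gap of 0.22 was the only one of 11 between neighbours larger than the SD of both. For C1qc and C1qa the only such gap was the one under SAHA RPC of labelled DG, 0.15 and 0.14. The whole span of the 12 means was 0.81 for C1qa, 0.76 for C1qb and 0.65 for C1qc. For Cx3cr1, Aif1, Trem2 and Tyrobp no neighbouring means differed by more than the larger SD, over spans of 0.41, 0.37, 0.40 and 0.93.

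C1qc and C1qb rose with the maze in labelled DG of SAHA rats. The level of C1qc ran from 9.92 through a median of 9.96 to 10.08 in SAHA RPC rats, against 9.58, 9.67 and 9.84 in SAHA HC rats. The 7 RPC arrays all lay above the 7 HC arrays, which was so for 48 (0.442%) of the 10858 probes tested. The difference was 0.27 ± 0.06 (SE) on the log2 scale, a fold of 1.2, with an adjusted p of 0.0102 in limma.

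The level of C1qb ran from 11.28 through 11.38 to 11.47 in SAHA RPC rats, against 11.09, 11.17 and 11.30 in SAHA HC rats. Here 6 of 7 RPC arrays lay above the highest HC array. The difference was 0.21 ± 0.05 (SE), a fold of 1.16, with an adjusted p of 0.0299 in limma. C1qa, the third chain, ran from 10.59 through 10.66 to 10.81 in SAHA RPC rats, against 10.23, 10.47 and 10.66 in SAHA HC rats. All 7 RPC arrays were above the HC mean, but 2 HC arrays, at 10.63 and 10.66, overlapped with them. Its difference of 0.21 ± 0.07 (SE) was as large as that of C1qb and did not pass the test (adjusted p = 0.129 in limma).

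In this comparison 2 of the 7 members passed the test, both higher, against 1.45% of the 10858 probes tested (157 probes, of which 131 or 1.21% were higher). The median difference of the 7 members was 0.11, beside -0.01 over 7795 genes. The other 4 members did not pass: the difference was 0.11 for Tyrobp, 0.05 for Aif1, 0.05 for Trem2 and -0.03 for Cx3cr1. With the replicate number as a block, C1qc passed (adjusted p = 0.0248) and C1qb did not (adjusted p = 0.0615). Neither passed when arrays were scaled to a common median (adjusted p = 0.0871 and 0.176) or when all 84 arrays were fitted together with the replicate number as a random block (adjusted p = 0.217 and 0.512), with the same or nearly the same differences.

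**Figure D2:**
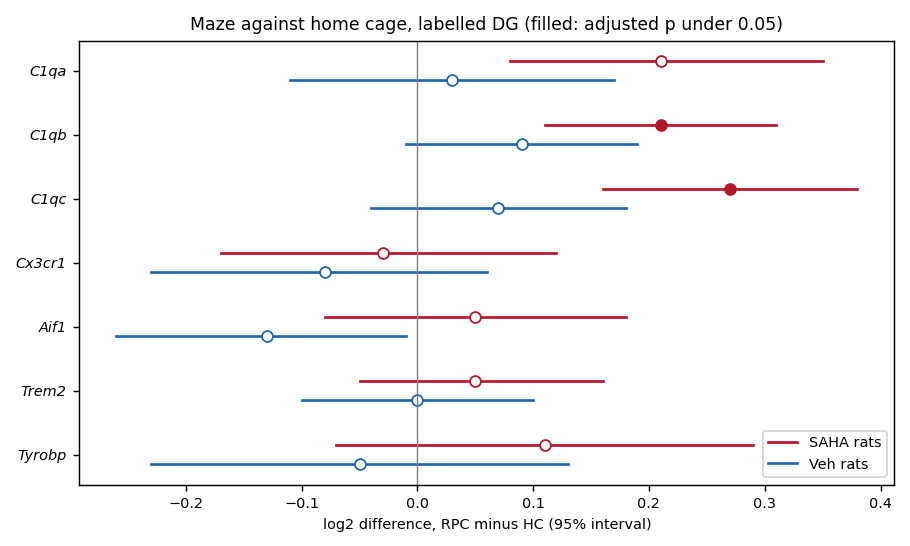
Log2 difference between RPC and HC rats in labelled DG (horizontal axis, with 95% interval) for the 7 probes, in SAHA rats (upper line of each pair) and in vehicle rats (lower line), 7 arrays a group. Filled points passed the adjusted p of 0.05: C1qc at 0.27 and C1qb at 0.21 in SAHA rats.

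In vehicle rats the same comparison gave smaller values for the C1q genes. C1qb ran from 11.18 through 11.29 to 11.48 in Veh RPC rats, against 11.09, 11.20 and 11.36 in Veh HC rats, a difference of 0.09 ± 0.05 (SE). C1qc ran from 9.66 through 9.83 to 10.02 in Veh RPC rats, against 9.67, 9.74 and 9.96 in Veh HC rats, a difference of 0.07 ± 0.06. C1qa differed by 0.03 ± 0.07. The groups overlapped for all 3 genes, and 0 of 7 members passed the test, beside 35 (0.322%) of 10858 probes. Aif1 had the smallest unadjusted p of the 7: its difference was -0.13 ± 0.06, each of the 7 Veh RPC arrays was below the Veh HC mean, and its adjusted p in limma was 0.584.

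Whether the maze acted differently in SAHA and vehicle rats is asked by the interaction, and it was not shown for any member. The interaction in labelled DG was 0.19 ± 0.08 (SE) for C1qc, 0.18 ± 0.10 for C1qa and 0.12 ± 0.07 for C1qb. All 3 had an adjusted p of 0.999 in limma, and the unadjusted p of C1qc was 0.0223; 1 (0.00921%) of 10858 probes passed. Averaged over SAHA and vehicle rats, C1qc was 9.91 ± 0.12 in RPC and 9.74 ± 0.10 in HC rats (SD, n = 14 each), a difference of 0.17 ± 0.04 (SE; adjusted p = 0.0125). C1qb was 11.36 ± 0.09 in RPC and 11.21 ± 0.09 in HC rats, a difference of 0.15 ± 0.04 (adjusted p = 0.0140), and 13 of 14 RPC arrays were above the HC mean for each. Again 2 of 7 members passed, both higher, beside 4.05% of 10858 probes (440 probes, 325 or 2.99% higher). C1qa, at 0.12 ± 0.05, did not pass (adjusted p = 0.162). With median scaling neither C1qc nor C1qb passed here (adjusted p = 0.126 and 0.161), nor with all 84 arrays in 1 fit (0.201 and 0.303).

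Of the other microglial and complement lists, 1 gene passed the test in labelled DG of SAHA rats. Of the list of 12 tested homeostatic microglia genes, such as the purine receptor P2ry12, 0 passed and the median difference was 0.08. Of 14 tested genes of the rest of the complement cascade 0 passed (median 0.03), of 14 pan-myeloid genes 0 (median 0.05), of 13 genes of Trem2 and Csf1r signalling 0 (median 0.07), and of 13 phagosome and lysosome genes 0 (median 0.04). Of 8 ligands of these receptors 0 passed (median 0.01). Of 15 activation genes 1 passed: Nfkbia, the inhibitor of the factor NF-kappa-B, at 11.66 ± 0.18 in SAHA RPC and 11.27 ± 0.24 in SAHA HC rats (SD, n = 7 each; difference 0.39 ± 0.08 SE, adjusted p = 0.0126 in limma, and 0.0933 with median scaling). Over all 7795 genes 1.41% passed.

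Markers of other cell types were measured beside this result. In the same comparison 10 of 10 tested oligodendrocyte markers had a positive difference, from 0.09 to 0.43, and 0 passed. The 4 tested markers of dentate granule cells had a median of -0.21 and 0 passed. The mean level of 8 neuron markers ran from 10.95 to 11.09 in SAHA RPC and from 11.05 to 11.24 in SAHA HC arrays. For 9 astrocyte markers it ran from 12.07 to 12.35 in SAHA RPC and from 12.03 to 12.32 in SAHA HC arrays. For 5 oligodendrocyte precursor markers it ran from 9.26 to 9.46 in SAHA RPC and from 9.07 to 9.39 in SAHA HC arrays. Of 7 perivascular macrophage markers with a probe, 4 could be tested (median -0.11, 0 passed); Lyve1, Pf4 and Clec10a were detected on 28 of 28 arrays and Mrc1 on 8 of 28, while Cd163, Folr2 and Ms4a7 were detected on 0 of 28. The mean level of those 4 ran from 6.07 to 6.40 in SAHA RPC and from 6.26 to 6.63 in SAHA HC arrays. Of 9 monocyte and neutrophil markers 2 could be tested (differences of 0.09 and 0.22, 0 passed), with Ccr2 detected on 9 of 28 arrays, Plac8 on 8 and Lcn2 on 6, and S100a8, S100a9, Ly6c, Mpo, Retnlg and Cxcr2 on 0. Of 7 T and B cell markers with a probe 2 could be tested (0 passed): Cd3e was detected on 28 of 28 arrays and Lck on 12, and Cd3d, Cd3g, Cd8a, Cd4 and Cd79b on 0. Averaged over SAHA and vehicle rats, 3 such markers passed the test beside C1qb and C1qc. Over all 10858 probes 4.05% passed in that comparison, so markers passing there are not by themselves a sign of a changed cell type. The oligodendrocyte gene Mobp rose by 0.35 (adjusted p = 0.0236 in limma; 1 of 10 markers passed), the neuronal glutamate transporter gene Slc17a7 differed by -0.43 (adjusted p = 0.0176; 1 of 8) and the macrophage lectin gene Clec10a by -0.26 (adjusted p = 0.0205; 1 of 4). Clec10a did not vary over the regions as Lyve1 and Pf4 did. It averaged 8.21 in labelled CA1 and 7.59 in labelled DG. Lyve1 averaged 5.69 and 6.14 in these regions, and Pf4 averaged 5.77 and 6.14. Its difference is therefore that of 1 gene and not of the macrophage list. The part of the other cell types in either result was not tested.

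SAHA against vehicle called no member in any region. In labelled DG after the maze, C1qc was 9.98 ± 0.05 in SAHA RPC and 9.84 ± 0.12 in Veh RPC rats (SD, n = 7 each), a difference of 0.15 ± 0.06 (SE) with an unadjusted p of 0.0152 and an adjusted p of 0.587 in limma. Cx3cr1 was 6.38 ± 0.13 in SAHA RPC and 6.22 ± 0.12 in Veh RPC rats, a difference of 0.15 ± 0.07 (adjusted p = 0.768). The 7 members' differences ran from 0.00 to 0.17, and 9 (0.0829%) of 10858 probes passed. In home cage rats of labelled DG they ran from -0.09 to 0.10, with a smallest adjusted p of 0.902, and 3 (0.0276%) of 10858 probes passed. The 95% interval of the C1qc difference in the maze rats was 0.03 to 0.26.

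In labelled CA1 of home cage rats the C1q genes lay lower with SAHA without passing the test. C1qb ran from 10.36 through 10.67 to 11.11 in SAHA HC rats, against 10.76, 10.94 and 11.27 in Veh HC rats. The groups overlapped, with 4 SAHA arrays under every vehicle array. The difference of -0.23 ± 0.10 (SE) had an unadjusted p of 0.0275 and an adjusted p of 0.67 in limma, where 1 (0.0101%) of 9919 probes passed. In maze rats of labelled CA1 the 7 members ran from -0.08 to 0.14, and 6 (0.0605%) of 9919 probes passed. In labelled CA3 the drug differences of the 7 members ran from -0.04 to 0.11 in home cage rats and from -0.24 to 0.31 in maze rats. C1qa had the value of 0.31, and without array Veh RPC replicate 6 it was 0.10. Probes that passed in labelled CA3 numbered 1 (0.00944%) and 0 (0%) of 10594.

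Cd93, once described as a C1q receptor and found mainly on endothelium and myeloid cells, had the smallest p of the complement list with the drug. Averaged over HC and RPC rats its SAHA minus vehicle difference was -0.46 for labelled CA1, -0.42 for labelled CA3 and -0.41 for labelled DG. None passed the test (adjusted p = 0.198, 0.956 and 0.087 in limma), where 0.0907%, 0.00944% and 0.718% of all probes passed, and Cd93 was singled out after its values were seen in labelled DG.

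**Figure D3:**
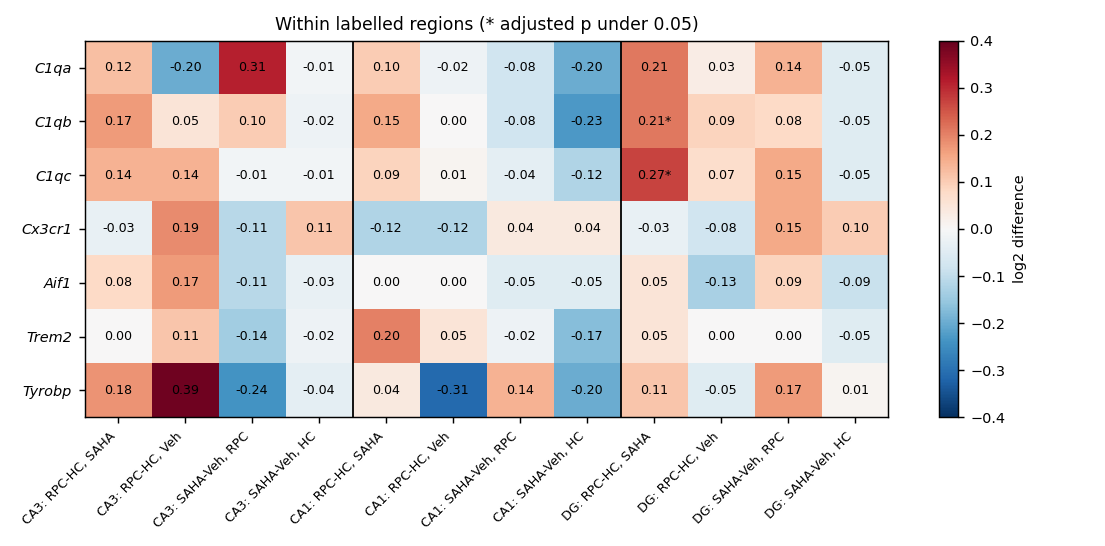
Log2 difference of each of the 7 probes (rows) in the 4 simple comparisons of each labelled region (columns: RPC minus HC in SAHA and in vehicle rats, SAHA minus vehicle in RPC and in HC rats), 7 arrays a group. Colour runs from blue (lower) to red (higher) and an asterisk marks an adjusted p under 0.05, which stands at C1qb and C1qc in labelled DG of SAHA rats.

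The maze called no member in labelled CA1, where many other probes changed. Of 9919 probes 639 (6.44%) passed with vehicle, 249 (2.51%) with SAHA, and 1362 (13.7%) passed over both; the share of higher probes among them was 38.2%, 70.3% and 46.8%, or 99.2%, 93.8% and 96.8% with median scaling. The 7 members differed by -0.31 (Tyrobp) to 0.05 (Trem2) in vehicle rats, with a smallest adjusted p of 0.244. In SAHA rats they differed by -0.12 (Cx3cr1) to 0.20 (Trem2). Trem2 was 10.12 ± 0.12 in SAHA RPC and 9.92 ± 0.18 in SAHA HC rats (SD, n = 7 each; unadjusted p = 0.0385, adjusted p = 0.285 in limma).

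Among ligands of the members' receptors, 1 rose and 1 fell with the maze in labelled CA1 of vehicle rats, and 6 of 8 did not pass. Of all 9919 probes 6.44% passed there. Cx3cl1, the ligand of Cx3cr1, was 13.81 ± 0.15 in Veh RPC and 13.56 ± 0.16 in Veh HC rats (SD, n = 7 each), a difference of 0.25 ± 0.07 (SE; adjusted p = 0.0213). Csf1, a ligand of Csf1r, was 7.75 ± 0.24 in Veh RPC and 8.11 ± 0.17 in Veh HC rats, a difference of -0.36 ± 0.11 (adjusted p = 0.0389). With median scaling Cx3cl1 passed (0.34, adjusted p = 0.0453) and Csf1 did not (-0.26, adjusted p = 0.387); with the authors' z-scores neither passed (adjusted p = 0.0877 and 0.0894). Averaged over both drugs, where 13.7% of all probes passed, Cx3cl1 differed by 0.22 ± 0.05 (adjusted p = 0.00235 in limma). It also passed with median scaling (0.00106) and with z-scores (0.019). Mertk, a receptor for the uptake of dying cells, was the only called gene of the 11 tested homeostatic genes in vehicle rats, at 0.32 ± 0.10 (adjusted p = 0.0495). That count is near the background of 6.44% of all probes.

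In labelled CA3 the maze called no member, and few probes of any kind: 2 (0.0189%) of 10594 with vehicle and 3 (0.0283%) with SAHA. Tyrobp had the largest difference, 0.39 ± 0.19 (SE; adjusted p = 0.251), with 7.35 ± 0.62 in Veh RPC and 6.97 ± 0.14 in Veh HC rats (SD, n = 7 each). That difference was 0.20 without array Veh RPC replicate 6 and -0.01 without all arrays of low correlation. On that array Tyrobp stood at 8.52, Aif1 at 11.79, Trem2 at 10.74 and Cx3cr1 at 7.28, the highest of the 84 arrays for each. On the same array C1qa stood at 8.63, C1qb at 10.26 and C1qc at 9.11, the lowest of the 84 for each. In raw signal the array was also the highest of the 84 for Tyrobp (286), Aif1 (4328) and Trem2 (1868) and the lowest for C1qa (314). In raw signal it was no extreme for Cx3cr1 (131, where other arrays reached 178), C1qb (1258, where others went down to 956) or C1qc (471, where others went down to 449).

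Between labelled regions, C1qa, C1qb, C1qc, Cx3cr1, Aif1 and Trem2 had lower levels in labelled CA1 than labelled DG, also with median scaling and with z-scores. C1qb ran from 10.36 through a median of 10.90 to 11.33 in labelled CA1, against 11.09, 11.28 and 11.48 in labelled DG (28 arrays each). The groups overlapped, with 24 labelled CA1 arrays under the lowest labelled DG array. The difference was -0.40 ± 0.04 (SE; adjusted p = 2.46e-13 in limma). The others were -0.29 for Aif1, -0.27 for C1qa, -0.25 for Trem2, -0.21 for Cx3cr1 and -0.17 for C1qc, each called. Tyrobp, at -0.15, did not pass (adjusted p = 0.0749), and passed with median scaling at -0.41 and with z-scores. So 6 of 7 members were called, all lower, where 72.4% of 11403 probes were called: a count near the background.

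In labelled CA3 the C1q genes and Tyrobp differed from labelled DG in opposite directions. C1qb ran from 10.26 through 10.71 to 10.95 in labelled CA3, against 11.09, 11.28 and 11.48 in labelled DG. All 28 labelled CA3 arrays lay under all 28 labelled DG arrays, as for 2.16% of 11403 probes, with a difference of -0.58 ± 0.04 (SE; adjusted p = 1.41e-20 in limma). C1qa differed by -0.50, C1qc by -0.41 and Cx3cr1 by -0.24, all called; with median scaling C1qb shrank to -0.15 and passed (adjusted p = 0.0277), while C1qa (-0.13) and C1qc (-0.12) did not pass. Trem2 differed by -0.28 and was called, against 0.10 with median scaling, and Aif1 by -0.05, not called, against 0.40. Tyrobp ran from 6.75 through 6.96 to 8.52 in labelled CA3, against 6.20 to 6.99 in labelled DG, a difference of 0.38 ± 0.08 (adjusted p = 1.13e-05 in limma). It was 0.33 without array Veh RPC replicate 6 and 0.24 without all arrays of low correlation. Its median raw signal was 194.5 in labelled CA3 and 187.5 in labelled DG. In all, 5 members were called lower and 1 higher, where 75.4% of 11403 probes were called: a count near the background.

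Against labelled CA1, labelled CA3 had lower C1q genes and higher Aif1 and Tyrobp, a pattern that depended on the scaling. The difference was -0.22 for C1qa, -0.18 for C1qb and -0.24 for C1qc, against 0.24 for Aif1 and 0.53 for Tyrobp, all called, where 80.7% of 11403 probes were called. Trem2 and Cx3cr1 were not called, both at -0.03. With the authors' z-scores C1qa did not pass (adjusted p = 0.0663), and Cx3cr1 passed with z-scores (adjusted p = 0.0365), with array weights (-0.10, adjusted p = 0.0203) and without the arrays of low correlation (-0.13, adjusted p = 0.00388). Median scaling took the median of all tested probes from 0 to 0.38 in this comparison. It took that median from 0.02 to 0.20 for labelled CA3 minus labelled DG, and from 0 to -0.19 for labelled CA1 minus labelled DG. In labelled CA3 minus labelled CA1 median scaling turned the 3 C1q differences positive (0.34, 0.43 and 0.28). It also took the share of higher probes among those called to 78.8%, 68.9% and 24.4%, against 50.6%, 52.2% and 50.2% with quantile normalisation.

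**Figure D4:**
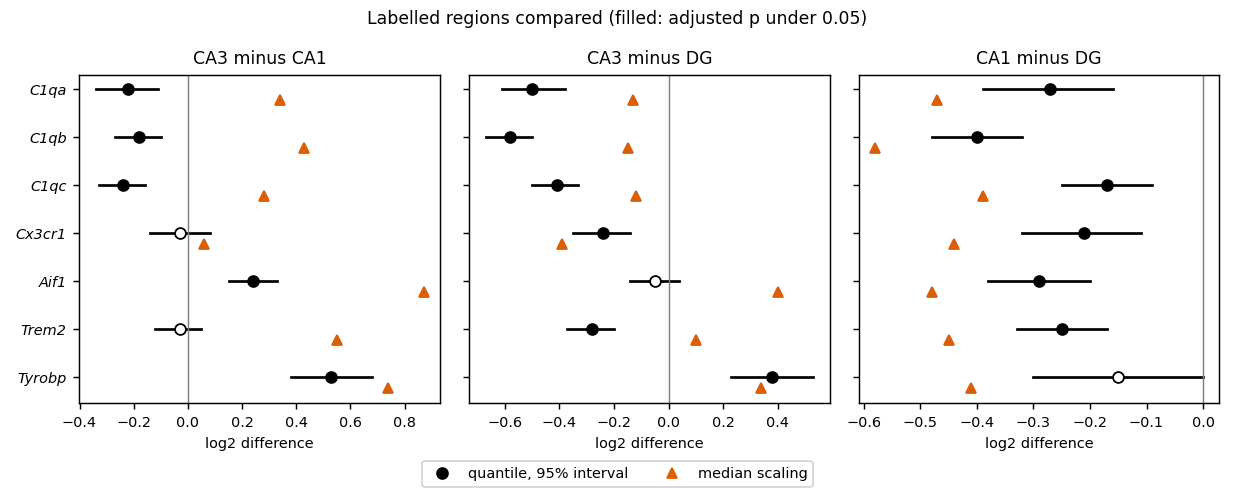
Log2 difference between labelled regions (horizontal axis) for the 7 probes, 28 arrays a region. Circles with 95% intervals are quantile-normalised values, filled at an adjusted p under 0.05, and triangles are values after scaling to a common median; the C1q circles lie left of 0 in all 3 comparisons and their triangles lie right of 0 for CA3 minus CA1, as do those of Trem2 and Aif1 for CA3 minus DG.

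A ratio taken within an array does not depend on a shift shared by all probes. The mean log2 level of the 3 C1q probes less that of Tyrobp averaged 2.96 ± 0.47 (labelled CA3), 3.70 ± 0.26 (CA1) and 3.84 ± 0.18 (DG; SD, n = 28 each). With median scaling it was 3.18 ± 0.42, 3.57 ± 0.24 and 3.65 ± 0.16. Less Aif1, it averaged -1.04 ± 0.31 (CA3), -0.58 ± 0.17 (CA1) and -0.59 ± 0.18 (DG), and -1.11 ± 0.42, -0.58 ± 0.17 and -0.58 ± 0.17 with median scaling. Less Trem2, it averaged 0.02 ± 0.31 (CA3), 0.20 ± 0.15 (CA1) and 0.23 ± 0.14 (DG), gaps within the SD of labelled CA3. With median scaling these were 0.00 ± 0.39, 0.20 ± 0.14 and 0.23 ± 0.13, again within that SD. Less Cx3cr1, it averaged 3.97 ± 0.41, 4.15 ± 0.25 and 4.22 ± 0.18, and the order turned round with median scaling (4.29 ± 0.38, 3.99 ± 0.31 and 4.03 ± 0.18). Relative to Tyrobp, Aif1 and Trem2, then, C1q had its lowest mean in labelled CA3 on both scalings, which was not so relative to Cx3cr1. The labelled CA3 means hold a far array: with quantile normalisation the lowest value was 0.81 less Tyrobp and -2.46 less Aif1. The medians there were 3.07 and -0.98. With Tyrobp and median scaling, the gap to labelled CA1 was smaller than the SD of labelled CA3 itself. These ratios are descriptions of how the probes differ between regions and were not tested.

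Genes of the wider microglial lists also differed between regions. Of 12 homeostatic microglia genes, 0 were higher and 9 lower when labelled CA3 was set against labelled DG, and 2 higher and 7 lower when labelled CA1 was. Over all 11403 probes 75.4% and 72.4% were called in these comparisons, so both counts of called genes are near the background. P2ry12 differed by -0.81 and by -0.56, and by -0.74 and -0.82 with median scaling. Laptm5, a lysosomal protein of blood-derived cells, differed by -0.62 and by -0.80, and by -0.36 and -1.02 with median scaling. It is 1 gene of the pan-myeloid list, whose genes did not all go this way. Over the 12 group means Laptm5 correlated with the mean of the members at 0.90, and Coro1a of the same list at -0.89. Of 15 activation genes, 10 were higher and 3 lower for labelled CA3 against labelled DG, where 75.4% of all probes were called. Among them were Lpl, the lipoprotein lipase, at 1.4 and Lgals3, galectin-3, at 0.91. Il34, a ligand of Csf1r, was higher in labelled CA3 by 0.79 against labelled DG and by 1.11 against labelled CA1, and likewise with median scaling (0.75 and 1.32). Cx3cl1 differed by -0.48 and -0.52 in the same pairs, and by 0.02 and -0.01 with median scaling.

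Markers of other cells differed between the regions as well. Of 10 oligodendrocyte markers 10 fell below labelled DG in labelled CA1, with a median of -1.48, and 9 exceeded labelled CA1 in labelled CA3, with a median of 1.54. Of 9 astrocyte markers 9 fell below labelled DG in labelled CA3. Of all 11403 probes 72.4%, 80.7% and 75.4% were called in these 3 comparisons. These are quantile-normalised values, and some astrocyte gaps were small: Gja1 averaged 13.58 in labelled CA3 and 13.67 in labelled DG. Median scaling took the median of all probes in that comparison from 0.02 to 0.20. Their part in the members' differences was not tested. The 3 regions of a rat are not independent, and the labels do not say which arrays share a rat; with the replicate number as a random block the estimated correlation was -0.011.

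Across arrays of a group the levels of the C1q genes were correlated. The residuals from the 12 group means, over 84 arrays, gave a Pearson correlation of 0.69 for C1qb with C1qc, 0.61 for C1qa with C1qb and 0.41 for C1qa with C1qc. Aif1 with Trem2 had 0.81. Between a C1q gene and one of the other 4 the median over 12 pairs was 0.00, from -0.55 to 0.33. Without the 8 arrays of low correlation, the C1q pairs had a median of 0.58 over 76 arrays, and the pairs of C1q with the other 4 a median of 0.30. In labelled DG, with no such array, the C1q pairs ran from 0.48 to 0.53 and the pairs of C1q with the others from -0.16 to 0.32, with a median of 0.02 (28 arrays). In labelled CA1 the pairs of C1q with the others had a median of 0.51, from -0.11 to 0.72 (28 arrays). In labelled CA3 their median was -0.23 over 28 arrays and 0.23 over the 23 without those of low correlation. These arrays share their normalisation and RNA quality, and the correlations are descriptions.

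**Figure D5:**
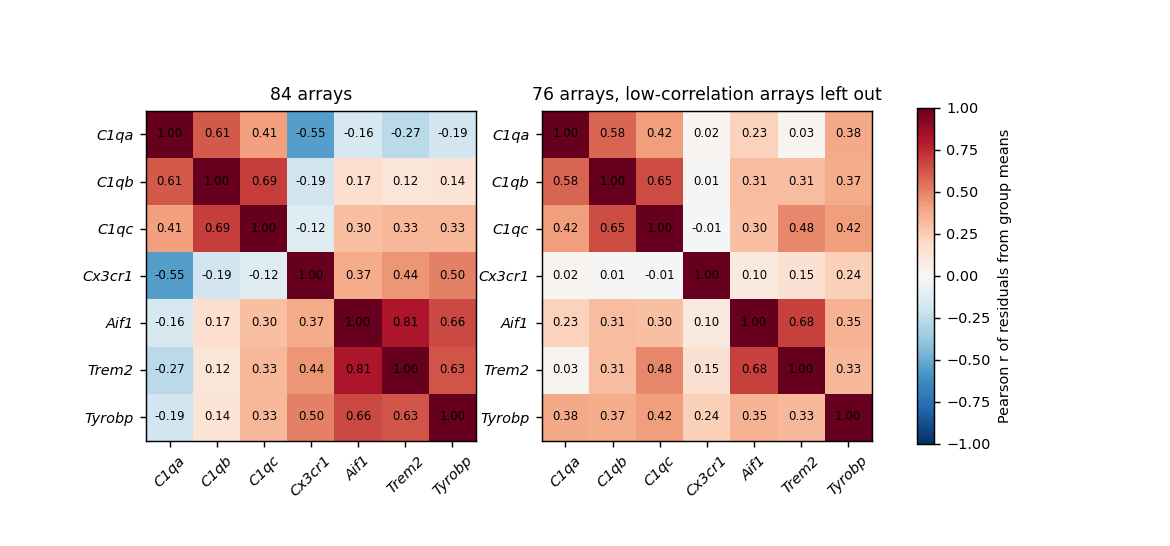
Pearson correlation of residuals from the 12 group means for each pair of the 7 probes, over 84 arrays (left) and over 76 arrays without those of low correlation (right). C1qa, C1qb and C1qc form a block of 0.41 to 0.69 on the left; the value of C1qa with Cx3cr1 is -0.55 on the left and 0.02 on the right.

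The genes whose residuals were most like the mean of the 7 members were ranked over 8108 genes. The first was Fcgr3a, an Fc receptor of myeloid cells, with a correlation of 0.77 over 84 arrays, followed by S100a1 (0.77), Mxra8 (0.75) and Cyba (0.75), a subunit of the phagocyte oxidase. Lgals1, Tmem176b, Ctsh, Ifitm3, Pf4 and Rnd2 completed the first 10, with 0.74 to 0.72. Genes of the homeostatic microglia list were less alike, from -0.23 for P2ry12 to 0.54 for Slc2a5. The members themselves did not all go together: each with the mean of the others, they ran from -0.04 for C1qa to 0.63 for Aif1. Over the 12 group means the 5 nearest were Cyba (0.98), Cpxm1, Hexa, S100a1 and Zfp653 (0.96 each). The 99th percentile of all genes was 0.63 over arrays and 0.91 over group means. Without the 8 arrays of low correlation Fcgr3a ranked 12 and Cyba 14, with 0.65 and 0.64, while Mxra8, S100a1, Lgals1 and Rnd2 stayed among the first 10.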

How the data were processed

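The 84 arrays are Illumina bead arrays of rat hippocampus, read out with GenomeStudio 2011.1 per the submitters' processing notes; no other upstream step is stated. The authors deposited raw signal (intensity) values of 22523 probes on a linear scale from 36 to 41948. The deposited detection p-value columns hold 0.01 in place of 0 (29.84% of entries), which was read as 0. The authors' normalized score is the log10 signal less the array mean, over the array SD (z-score), and was used as an alternative.

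From the signal, background was corrected by normexp (limma 3.58.1 in R 4.3.3, data.table, version 1.17.8, offset of 16, which shrinks differences of dim probes), then log2 values were quantile normalised over 84 arrays, which removes shifts shared by most probes. Probes with a detection p-value under 0.01 on at least 7 arrays of a region were tested: 10594 in labelled CA3, 9919 in labelled CA1, 10858 in labelled DG and 11403 over all arrays. limma (lmFit, eBayes with trend) was fitted to the 4 groups of a region or the 12 groups, with Benjamini-Hochberg adjustment over all tested probes and a threshold of 0.05. The p-values measure the spread between 7 rats a group, which limits the precision. On simulated data for RPC minus HC in SAHA rats of labelled DG (10858 probes), changes of 0.2, 0.5 and 1.0 on the log2 scale were recovered for 23.9%, 86.6% and 100% of probes, with 6.04% false among calls. No arrays held identical values.

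The members and the 21 other gene lists were chosen with earlier results of these data known. Named genes were the members, up to 4 called genes of each list in a comparison (where none was called, up to 2 of the complement and microglia lists), and the genes most like the members: 10 over arrays and 5 over group means. Gene names come from the platform annotation, updated through RefSeq, and a gene with several probes was read from its brightest. Figures were drawn with matplotlib 3.10.9. Arrays sharing a replicate number were hardly more alike than others. Within a region, where they come from different groups, their deviations correlated at 0.013 on average, against 0.002 for other pairs. Between regions of the same drug and behaviour the averages were -0.01 and 0.002. Whether a number marks 1 rat in the 3 regions is not stated by the labels.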

Additional observations from a re-analysis of the deposited data

Results flagged for a closer look

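On the log2 scale, 9 of the 84 combinations of a member and a group of 7 arrays held an array far from its group, by a gap to its nearest neighbour of over 0.568 of the group's range; chance flags about 5% of groups. Array Veh RPC replicate 6 of labelled CA3 accounts for 2 of them, with the lowest C1qa level of its group (8.63) and the highest Cx3cr1 level (7.28); it also had the lowest share of detected probes of the 84 arrays, 35.35%.

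In labelled CA1, C1qa was high on array SAHA HC replicate 6 (10.63) and C1qc on SAHA HC replicate 4 (9.88). Cx3cr1 was high on array Veh HC replicate 4 (6.49) and low on Veh RPC replicate 3 (5.78) of labelled CA1, and low on SAHA RPC replicate 5 of labelled CA3 (5.72). Tyrobp was high on array Veh HC replicate 6 of labelled CA1 (7.36), 1 of the 8 arrays of low correlation. Aif1 was low on array Veh HC replicate 2 of labelled DG (11.04).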

How the results depend on the processing

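Of 1569 values of the members under alternatives, 1466 kept their direction and their side of the threshold, 17 lost and 10 gained a call, 6 reversed, and 70 uncalled values changed sign. Of 4116 values with 1 array left out, 3933 kept both, 7 lost and 4 gained a call and 0 reversed. In labelled DG of SAHA rats, RPC minus HC called 2 members, 0 with median scaling and with all 84 arrays in 1 fit, 1 (C1qc) without a filter, with the replicate block and with only the 2 compared groups, and 1 to 2 with an array left out. C1qb lost its call, at an adjusted p of 0.0521 to 0.07, without SAHA RPC replicate 2, 4 or 6 or SAHA HC replicate 2, 3, 4 or 6. C1qa gained a call with array weights (0.23, adjusted p = 0.0488). The mean over both drugs called 2, and 0 with median scaling and with all 84 arrays. Between regions, median scaling reversed labelled CA3 minus labelled CA1 for C1qa (0.34), C1qb (0.43), C1qc (0.28) and Trem2 (0.55), and labelled CA3 minus labelled DG for Aif1 (0.40) and Trem2 (0.10); it ended the calls of C1qa (-0.13) and C1qc (-0.12) in the latter. With vehicle home cage arrays alone, Tyrobp in labelled CA3 minus labelled CA1 (0.23) and C1qc (-0.07) and Cx3cr1 (-0.15) in labelled CA1 minus labelled DG lost their calls. Leaving out an array gave 6 to 7 calls for labelled CA1 minus labelled DG.

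Counts over all probes moved too. In labelled DG, 157 called in SAHA rats became 45 to 334, and 440 over both drugs became 109 to 572. In labelled CA1, 639 called in vehicle rats became 124 to 1373, 249 in SAHA rats 124 to 918, and 1362 over both 746 to 2048. In labelled CA3, 2 called probes of vehicle rats became 1 to 2299, and none of the members was called under any of these. The block on replicate number changed no other call. The cause of these changes was not tested. Slide was not run as a block because no header or label names it. Cx3cr1 and Tyrobp, close to background, limit what small changes could be seen.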
